A study of Homo sapiens with 4 samples.

Results

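The genes described are the expressed members of the ZNF-numbered zinc finger genes in HCT-8, a cell line from a human colorectal adenocarcinoma. They were chosen by name (ZNF followed by a number and at most 1 letter) and by level: a mean of at least 10 CPM (a gene's count per 1000000 counts of its file) in the 2 negative control libraries. Of 507 ZNF symbols among 20323 genes, 100 met the rule, or 19.7%, while 41.0% of all genes reached that level. A further 56 ZNF symbols had a count of 0 in every library. The control level therefore chose the members and is given as a description only. ZNF805 (10.03 CPM), ZNF276 (10.07 CPM) and ZNF268 (10.15 CPM) lay just inside the limit, and ZNF557 (9.99 CPM), ZNF616 (9.92 CPM) and ZNF335 (9.89 CPM) just outside it.

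All cells were of a 5-FU-resistant form of the line, that is, resistant to the pyrimidine analogue 5-fluorouracil, and had received a plasmid. In the control group (NC) it was a negative control plasmid, and in the other group (OE) a METTL14 overexpression plasmid. METTL14 is the partner of METTL3 in the enzyme complex that writes N6-methyladenosine in messenger RNA. Cells were exposed to 100 ug/mL cycloheximide, which holds ribosomes in place, and RNA fragments shielded by ribosomes from RNase were sequenced. Each group had 2 libraries from experiments described as independent. The cells are a single transfected line, and no untransfected or 5-FU-sensitive cells were analysed here. A footprint count depends on both the amount of a message and how densely ribosomes occupy it, and these cannot be told apart here, nor can fewer cells with a message from less message per cell.

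Most ZNF genes encode proteins with tandem C2H2 zinc fingers, small zinc-binding modules that usually read DNA sequence and in some proteins bind RNA or protein. Many carry an N-terminal KRAB domain, which recruits TRIM28 and through it histone methylation by SETDB1 and silencing of retroelements. The family grew by tandem duplication, so that many members lie side by side and have closely similar finger repeats. Others have no KRAB domain and act as activators, cofactors, RNA-binding proteins, ribosome factors or ubiquitin ligases.

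Promoter sequences are shown for the members on which the results below turn: the 4 with the smallest p-value and the 4 with the highest control level, as far as a RefSeq promoter (GRCh38.p14) was found. Each is the 250 bases before the gene's start, on the gene's strand from 5′ to 3′. Capitals mark a GC box (GGGCGG, or CCGCCC on the other strand), a CCAAT box (CCAAT, or ATTGG), an NRF1 core (GCATGCG, or CGCATGC) or an ETS site (CCGGAAG, or CTTCCGG). ZNF281 (chr1:200410037-200410286, minus strand) and ZNF142 (chr2:218659624-218659873, minus strand) are of the first kind. ZNF207 (chr17:32349907-32350156, plus strand), ZNF24 (chr18:35344421-35344670, minus strand) and ZNF326 (chr1:89994860-89995109, plus strand) are of the second.
ZNF281: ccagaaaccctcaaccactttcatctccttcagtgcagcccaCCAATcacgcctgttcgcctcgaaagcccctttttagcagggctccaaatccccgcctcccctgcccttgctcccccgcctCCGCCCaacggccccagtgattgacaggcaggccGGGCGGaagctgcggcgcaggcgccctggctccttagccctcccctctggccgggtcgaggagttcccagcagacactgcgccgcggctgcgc
ZNF142: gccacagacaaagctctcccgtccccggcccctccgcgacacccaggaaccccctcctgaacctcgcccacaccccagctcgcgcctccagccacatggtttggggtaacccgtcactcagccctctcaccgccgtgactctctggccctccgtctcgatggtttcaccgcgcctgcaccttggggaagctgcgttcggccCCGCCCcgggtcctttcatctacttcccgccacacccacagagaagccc
ZNF207: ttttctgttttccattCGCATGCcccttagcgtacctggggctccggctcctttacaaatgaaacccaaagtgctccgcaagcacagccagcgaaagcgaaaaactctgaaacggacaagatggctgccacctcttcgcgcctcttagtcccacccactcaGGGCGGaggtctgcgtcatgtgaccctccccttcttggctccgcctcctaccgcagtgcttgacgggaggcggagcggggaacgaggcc
ZNF24: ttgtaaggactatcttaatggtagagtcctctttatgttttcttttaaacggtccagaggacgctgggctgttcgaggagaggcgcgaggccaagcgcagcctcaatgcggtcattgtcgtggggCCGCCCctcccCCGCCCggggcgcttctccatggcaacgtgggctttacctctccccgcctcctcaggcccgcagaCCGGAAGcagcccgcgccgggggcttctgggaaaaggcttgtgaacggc
ZNF326: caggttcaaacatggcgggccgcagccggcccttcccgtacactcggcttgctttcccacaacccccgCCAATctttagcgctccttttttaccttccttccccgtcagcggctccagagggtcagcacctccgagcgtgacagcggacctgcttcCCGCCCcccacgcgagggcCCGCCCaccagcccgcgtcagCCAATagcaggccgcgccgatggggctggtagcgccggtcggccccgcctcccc
The 5 promoters share GC-rich sequence, from 59.2% GC in ZNF207 to 69.2% in ZNF326, and each holds at least 1 GC box. A CCAAT box was found in ZNF281 (1) and ZNF326 (2) only. ZNF207 held the only NRF1 core of the 5 and ZNF24 the only ETS site, and none held a TATA box (TATAAA, or TTTATA).

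Across the expressed ZNF genes, 86 of 100 matched a promoter in the RefSeq table. Their median GC content was 64.4%, against 59.6% for 340 promoters of other ZNF genes and 65.2% for 10006 promoters of tested genes. A GC box was present in 70.9% of the 86, in 59.1% of the other ZNF promoters and in 68.1% of those of tested genes. The CCAAT box was found in 37.2% of the expressed ZNF promoters, 49.1% of the other ZNF promoters and 35.4% of the tested ones. The ETS site occurred in 26 of the 86 (30.2%), among them ZNF91, ZNF384, ZNF496 and ZNF622, in 30% of other ZNF promoters, 16.4% of those of tested genes and 8.82% of all 27305 promoters in the table. With a T required after the site, the shares were 18.6% of the members, 11.2% of other ZNF genes and 7.40% of tested genes, so the members' place beside the other ZNF genes depended on 1 base of the motif. The NRF1 core was found in 9.30% of the members' promoters and 5.80% of those of tested genes, and the TATA box in 3.49% and 5.55%. These shares were computed on both strands and describe the letters of a 250-base window.

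Library totals were 21846389 and 18707758 estimated counts for NC replicates 1 and 2, and 7742274 and 24392875 for OE replicates 1 and 2. OE replicate 1 stood apart: across genes its log2 levels correlated with those of OE replicate 2 at 0.863, against 0.983 for the NC pair, and its TMM factor (trimmed mean of M values, which rescales totals) was 1.36 against 0.889 to 0.912. METTL14 footprints, which check the labels, were (in CPM on TMM-scaled totals, as in all that follows unless file totals are named) 44.5 and 47.6 CPM in NC against 448 and 91.2 CPM in OE, higher than both controls in each OE library but 4.91 times as high in OE replicate 1 as in OE replicate 2. The fit gave a log2 fold change of 2.55 (SE 0.81); the adjusted p was 0.734 with edgeR (quasi-likelihood) and 0.0495 with DESeq2. Without OE replicate 1 it was 0.99 and without OE replicate 2 it was 3.24, both past edgeR's threshold. Of 10 colorectal epithelial markers, 8 were at 10 CPM or more and KRT20 and CEACAM5 were below 1 CPM; their summed level was 21322 to 21954 CPM in NC against 6276 and 24773 CPM in OE. Markers of leukocytes (3.33 to 13.3 CPM summed), fibroblasts (2.98 to 10.3), hepatocytes (0.469 to 2.28) and endothelium (0 to 0.410) were low, with CD3E and CDH5 at 0 throughout. Because of the difference within the OE pair, results are given for each OE library.

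Differences are log2(CPM + 0.5) from the mean of the NC libraries. The 100 ZNF genes held 0.223% and 0.238% of the counts in NC, and 0.476% and 0.245% in OE replicates 1 and 2. Their median count per gene was 387 and 350 in NC, and 279 and 474 in OE, and the lowest single count was 66.5, for ZNF627 in OE replicate 1. Between the NC libraries 99 of 100 genes agreed within 1.5 times. The SD of the log2 difference over the members was 0.23 for the NC pair and 0.81 for the OE pair, against 0.35 and 1.17 over all tested genes. Over tested genes with an NC mean of at least 10 CPM on file totals it was 0.23 and 1.06. At 10 to 20 CPM the SD of the NC pair was 0.25 over the members and 0.30 over all tested genes. At 20 to 50 CPM it was 0.19 and 0.22, and at 50 CPM and above (6 members) 0.20 and 0.18. The members' spread in the NC pair was thus somewhat lower than that of all tested genes below 50 CPM. Levels are counts per gene and not per length of coding sequence, so the order of different genes carries no comparison of output.

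**Figure D1:**
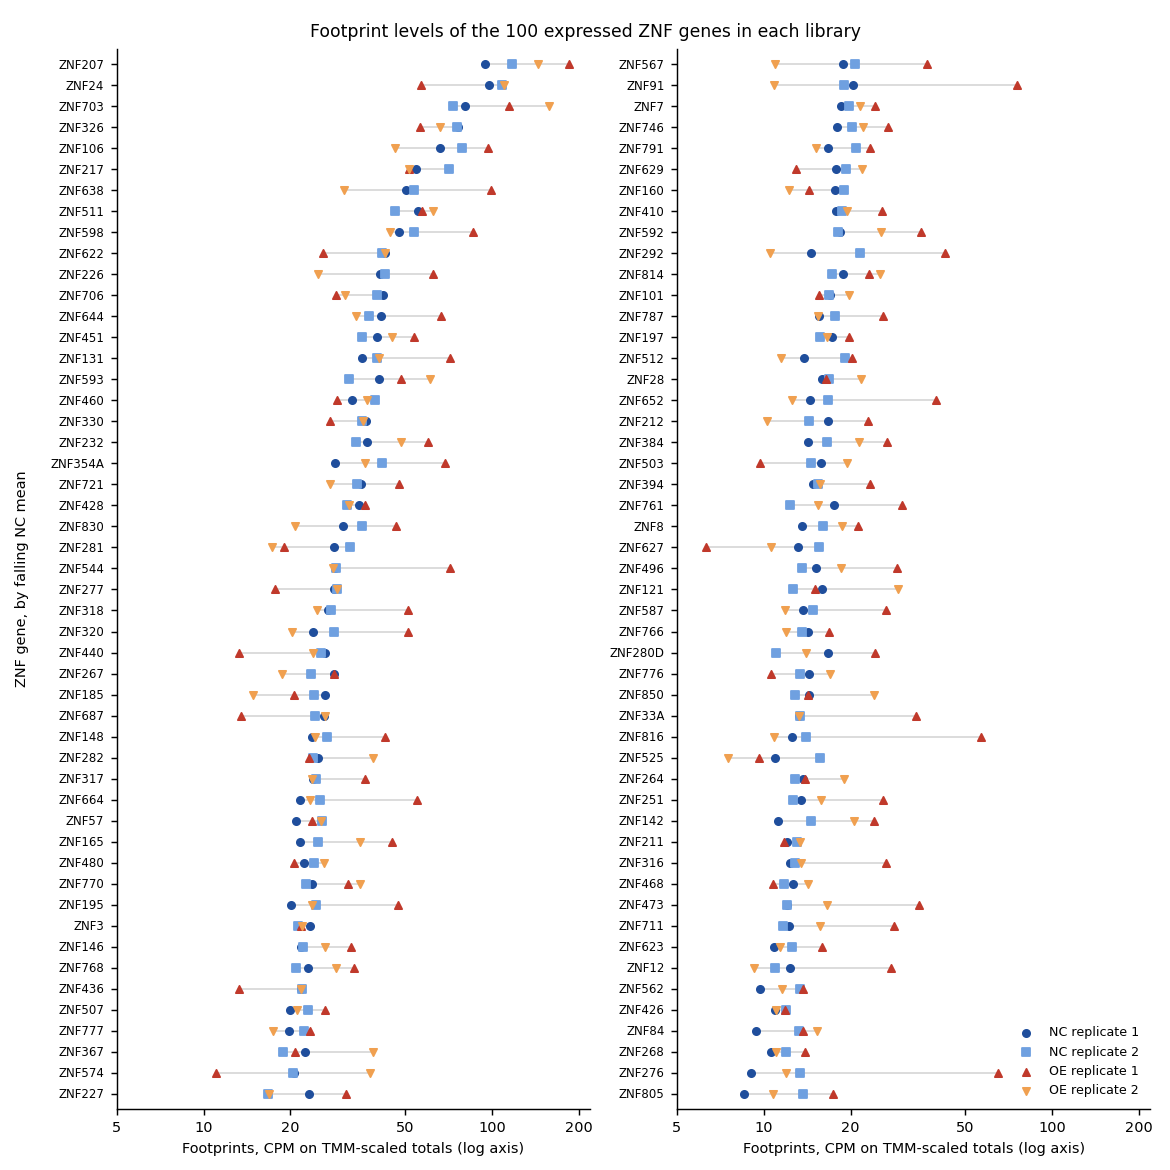
Footprint level of each of the 100 expressed ZNF genes in CPM on TMM-scaled totals (log axis), 1 point per library, with a grey line joining the lowest and highest of the 4. The NC points lie close together for nearly all genes, while OE replicate 1 (red) often lies away from the other 3, as for ZNF91 at 75.3 CPM against 10.8 to 20.4 CPM.

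No ZNF gene passed the test between OE and NC. The question was which of them differ with METTL14 overexpression, and the quasi-likelihood test of edgeR, adjusted over 12560 genes by Benjamini-Hochberg, called 0 of 100, with a smallest adjusted p of 0.734. It called 0% of all genes tested. At an unadjusted p below 0.05 there was 1 member, ZNF281, while 5.5% of all genes were below that value. DESeq2 also called 0 members (smallest adjusted p = 0.521), and 25 genes of all those tested, or 0.199%. Without OE replicate 1 the edgeR fit called 28 members (15 higher, 13 lower) where 34.1% of all genes were called. Without OE replicate 2 it called 63 (49 higher, 14 lower) where 60.9% were. In these fits 1 OE library stands alone and is given the spread of the NC pair.

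Both OE libraries lay above both NC libraries for 27 ZNF genes, where 19.9% of all tested genes did so. Both lay below for 10, against 20.4% of all tested genes, and the groups overlapped for 63. Among tested genes with an NC mean of at least 10 CPM on file totals, the limit of the rule, the shares were 15.01% above and 24.9% below. That set includes 3400 genes at 50 CPM and above (4.44% above, 36.8% below), a range that held only 6 members. At 10 to 20 CPM, 31.0% of the members lay above and 6.90% below, beside 28.8% and 12.7% of all tested genes. At 20 to 50 CPM the members' shares were 19.4% and 11.1%, beside 17.5% and 19.8% of all tested genes. The median log2 fold change was 0.31 over the members and 0.09 over all tested genes, and 74 of 100 members were above 0, against 56.2% of all tested genes. Without OE replicate 1 the members' median was 0.02, and 0.41 was the value without OE replicate 2. Scaled by library totals alone, the median over all tested genes moved to 0.40 and that of the members to 0.68, a gap of 0.28 in place of 0.21. That scaling gave 37 members above and 2 below, or 94.9% higher among those without overlap in place of 73.0% (all tested genes 72.0% in place of 49.3%).

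The higher values were mainly those of OE replicate 1. In that library the members' median difference was 0.44 (quartiles -0.05 and 0.87), a level 1.36 times the NC mean, while the median over all tested genes was 0.02. It exceeded both controls for 68 members and was below both for 25, against 46.7% and 45.5% of all tested genes. In OE replicate 2 the median difference was 0.02, with 44 members above both controls and 36 below, close to the 42.8% and 42.5% of all tested genes. OE replicate 1 was over 1.5 times the NC mean for 38 genes, and OE replicate 2 for 9. OE replicate 2 stayed within 1.5 times of the NC mean for 79 genes. The shares of all tested genes past these limits are not given here. Over all tested genes the quartiles of the difference were -0.66 and 0.77 in OE replicate 1. In OE replicate 2 they were -0.39 and 0.36, against -0.23 and 0.29 over the members.

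In OE replicate 1 the difference varied with level. Over all tested genes its median difference was 0.32 at an NC mean of 10 to 20 CPM on file totals, -0.09 at 20 to 50 CPM and -0.75 at 50 CPM and above. The ZNF genes at the same levels had medians of 0.46 (58 genes), 0.45 (36 genes) and 0.08 (6 genes). In OE replicate 2 the members' medians were 0.07, -0.02 and -0.05, beside 0.06, 0.02 and -0.06 for all tested genes. At each level the members' median lay above that of all tested genes in OE replicate 1 and close to it in OE replicate 2. The part of depth and of the shift with level in the members' values was not tested. The 283 tested ZNF genes under the limit had median differences of 0.69 and 0.12 in the first and second OE library, beside 0.66 and -0.02 for all tested genes under it. Both OE libraries lay above NC for 93 of the 283 (32.9%) and below for 21 (7.42%), near the 29.4% and 11.6% of all tested genes at that level.

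**Figure D2:**
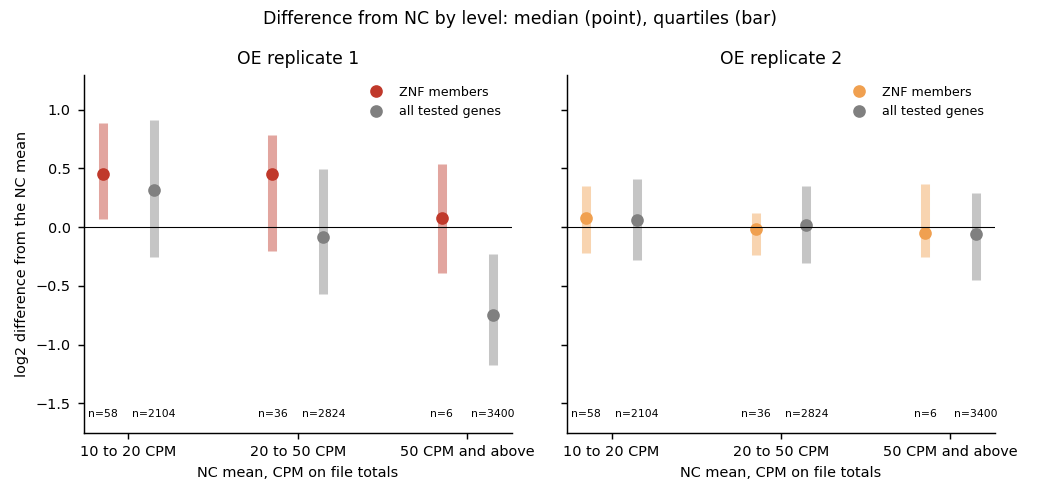
Median (point) and quartiles (bar) of the log2 difference from the NC mean in each OE library, for ZNF members (coloured) and all tested genes (grey), at 3 ranges of NC mean in CPM on file totals. In OE replicate 1 all tested genes go from 0.32 to -0.75 with rising level while the ZNF medians go from 0.46 to 0.08, and in OE replicate 2 both lie between -0.06 and 0.07.

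Among the ZNF genes whose OE values lay above NC, ZNF473 had the highest log2 fold change. ZNF473 is a component of the machinery that processes the 3′ ends of histone messages. Its footprints were 12.1 and 12.02 CPM in NC against 34.5 and 16.5 CPM in OE (log2 fold change 1.08, SE 0.44). OE replicate 1 was 2.86 times the NC mean and OE replicate 2 was 1.37 times. ZNF711, an X-linked gene in which mutations cause intellectual disability, had 12.2 and 11.6 CPM in NC against 28.3 and 15.7 CPM in OE (log2 fold change 0.88). ZNF165, known as a cancer-testis antigen, had 21.7 and 24.9 CPM in NC against 45.2 and 34.9 CPM in OE (0.78, SE 0.31, unadjusted p = 0.0515 by edgeR). Both OE libraries of ZNF165 lay outside the span of the controls, OE replicate 1 at 1.94 times the NC mean. ZNF142, whose promoter is printed above, had 11.2 and 14.6 CPM in NC against 24.1 and 20.5 CPM in OE (0.79, SE 0.32), or 1.87 and 1.59 times the NC mean. It overlaps BCS1L and PLCD4 in the RefSeq annotation, so its counts may share reads with them.

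ZNF703, a transcriptional repressor gene amplified in luminal breast cancers, had 80.9 and 73.2 CPM in NC against 115 and 158 CPM in OE. Here OE replicate 2 was the higher of the pair, at 2.05 times the NC mean against 1.49 times, and the log2 fold change was 0.82 (SE 0.35). ZNF592 had 18.3 and 18.1 CPM in NC against 34.9 and 25.5 CPM in OE (0.73). ZNF496 (15.1 and 13.5 in NC, 28.9 and 18.5 in OE) and ZNF251 (13.4 and 12.6, 26.0 and 15.8) had log2 fold changes of 0.72 and 0.68. These 8 genes were above both controls in each OE library, but none had an adjusted p below 0.734 by edgeR.

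ZNF281 had the smallest p of all 100. It encodes a C2H2 factor that binds GC-rich promoters and has been tied to epithelial-mesenchymal transition in colorectal cancer. Its footprints were 28.4 and 32.2 CPM in NC against 18.9 and 17.3 CPM in OE. The OE libraries were close to each other, at 0.624 and 0.571 times the NC mean, with a log2 fold change of -0.74 (SE 0.28, unadjusted p = 0.0463 and adjusted p = 0.734 by edgeR). ZNF627 was lower still, with 13.2 and 15.6 CPM in NC against 6.28 and 10.6 CPM in OE (-0.76), on a count of 66.5 in OE replicate 1. ZNF525 had 10.9 and 15.7 CPM in NC against 9.61 and 7.51 CPM in OE (-0.64).

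The remaining genes of the lowest 8 were nearer to the controls. ZNF185, which encodes a LIM-domain protein of the actin cytoskeleton rather than a C2H2 factor, had 26.3 and 24.2 CPM in NC against 20.6 and 14.9 CPM in OE (-0.51). ZNF160 had 17.7 and 19.0 CPM in NC against 14.4 and 12.2 CPM in OE (-0.47). ZNF706, a very small protein, had 41.9 and 40.0 CPM in NC against 28.7 and 31.0 CPM in OE (-0.46). In ZNF440 (26.4 and 25.6 in NC, 13.2 and 23.9 in OE) and ZNF436 (21.8 and 22.04, 13.2 and 21.8) OE replicate 2 lay just under the controls, and only OE replicate 1 was well below them.

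**Figure D3:**
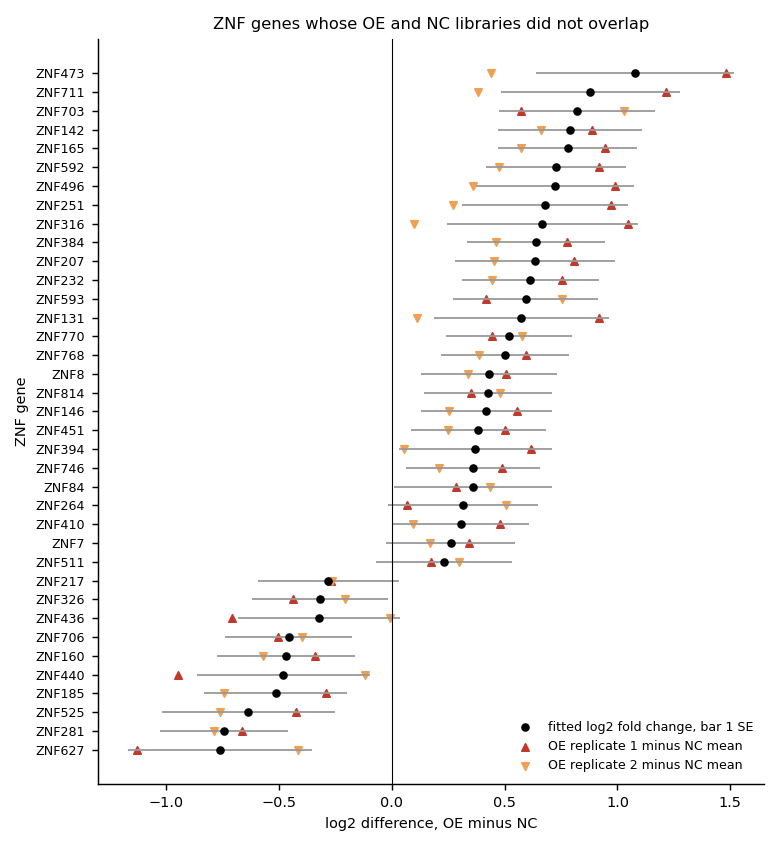
The 37 ZNF genes whose OE and NC libraries did not overlap (27 above, 10 below), with the fitted log2 fold change (black, bar 1 SE) and each OE library's log2 difference from the NC mean (coloured). For most genes above 0 the point of OE replicate 1 lies farther out than that of OE replicate 2, with ZNF703 among the exceptions.

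Of the ZNF genes with RNA, ribosome or ubiquitin roles, 9 of 11 listed were expressed, and ZNF346 and ZNF385A were under the limit (8.42 and 9.44 CPM on file totals, the scale of the rule). None passed edgeR's test; 3 were above and 1 below NC in both OE libraries, where 19.9% and 20.4% of all tested genes were. ZNF207, or BuGZ, a microtubule-binding protein of the mitotic spindle, had the highest NC mean of all members. It had 94.9 and 117 CPM in NC against 185 and 145 CPM in OE (log2 fold change 0.64, SE 0.36). ZNF593, a nuclear factor of the large ribosomal subunit's assembly, had 40.7 and 31.9 CPM in NC against 48.4 and 61.1 CPM in OE (0.59). ZNF593 overlaps ZNF593OS on the RefSeq map, and their reads cannot be told apart without strand. ZNF451, a SUMO ligase, had 40.1 and 35.4 CPM in NC against 53.6 and 44.9 CPM in OE (0.38).

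ZNF326, which links splicing to transcript elongation, was the gene below, with 76.3 and 75.9 CPM in NC against 56.2 and 65.8 CPM in OE (-0.32). ZNF598, the ubiquitin ligase that senses collided ribosomes, had 47.6 and 53.9 CPM in NC against 85.8 and 44.2 CPM in OE, so that the OE libraries lay on either side of the controls (0.36, SE 0.42). ZNF638, which silences unintegrated retroviral DNA with the HUSH complex, showed the same split, with 50.5 and 53.5 CPM in NC against 99.6 and 30.6 CPM in OE. So did the RNA-binding ZNF106 (66.1 and 78.9, 96.7 and 46.2) and the spliceosome-associated ZNF830 (30.4 and 35.5, 46.5 and 20.8). ZNF622, a maturation factor of the large ribosomal subunit, had 42.6 and 41.7 CPM in NC against 25.9 and 42.6 CPM in OE, low in OE replicate 1 only.

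Of promoter-binding activators and chromatin cofactors, 9 of 15 were expressed and none passed edgeR's test. ZNF592, ZNF384, ZNF146 and ZNF410 lay above NC in both OE libraries, and ZNF281 and ZNF217 below, against 19.9% and 20.4% of all tested genes. ZNF384 had 14.3 and 16.5 CPM in NC against 26.7 and 21.3 CPM in OE (0.64). ZNF410, known as an activator of CHD4, had 17.8 and 18.6 CPM in NC against 25.6 and 19.5 CPM in OE (0.30). ZNF217, a CtBP-associated factor amplified in breast cancers, had 54.4 and 70.8 CPM in NC and 51.5 CPM in each OE library (-0.28), and its sign turned with library totals as the scaling (0.047). ZNF687, a partner of ZNF592 in a ZMYND8 complex, had 26.2 and 24.3 CPM in NC against 13.5 and 26.5 CPM in OE. ZNF644, a partner of the G9a and GLP methyltransferases, had 41.1 and 37.5 CPM in NC against 66.4 and 33.9 CPM in OE.

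Proteins with a SCAN box, a dimerisation domain, were represented by 4 of 13 listed genes, again with none past edgeR's threshold. The list may not hold every SCAN gene among the members. ZNF165, ZNF232 and ZNF496 lay above NC in both OE libraries, as did 19.9% of all tested genes. ZNF232 had 36.9 and 33.9 CPM in NC against 60.1 and 48.3 CPM in OE (0.61). ZNF24, the fourth, had 97.8 and 108 CPM in NC against 56.6 and 110 CPM in OE, low in OE replicate 1 only. Of 7 listed KRAB proteins, some of them with retroelement, imprinting or heterochromatin roles, 3 were expressed. ZNF746, the repressor PARIS, had 17.9 and 20.2 CPM in NC against 26.8 and 22.02 CPM in OE (0.36). ZNF268 had 10.6 and 11.96 CPM in NC against 13.9 and 11.03 CPM in OE. ZNF91, a repressor of SVA retroelements, is described with the genes that split the OE libraries.

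**Figure D4:**
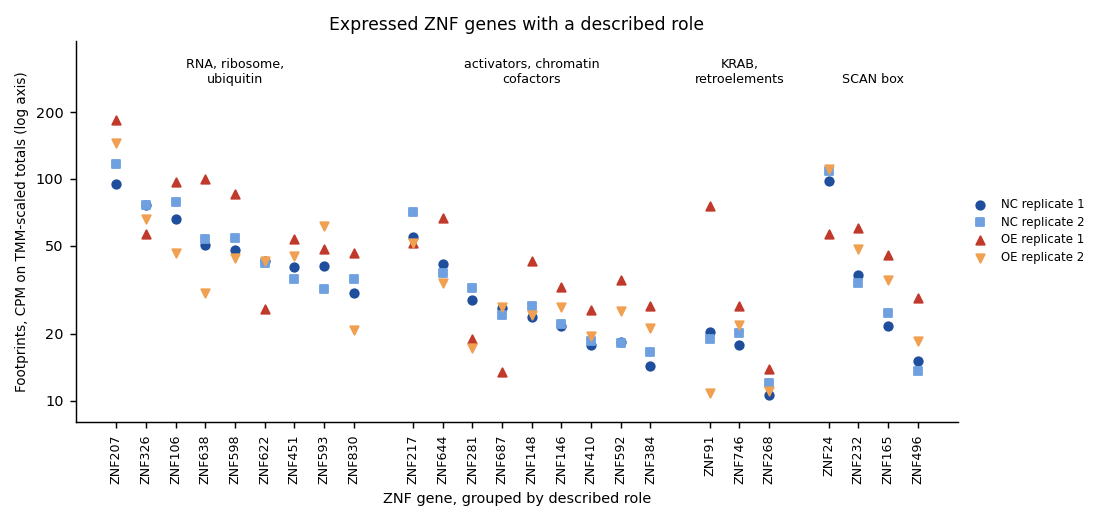
Footprint levels in CPM on TMM-scaled totals (log axis) of the expressed ZNF genes listed in 4 role groups, 1 point per library. OE replicate 1 lies above both controls for 7 of 9 RNA, ribosome and ubiquitin genes, 6 of 9 activators and cofactors, 3 of 3 KRAB proteins and 3 of 4 SCAN proteins. It does so for 68% of all members and 46.7% of all tested genes. Among tested genes with an NC mean of at least 10 CPM on file totals the share is 35.5%, and at 50 CPM and above 15.7%. At 10 to 20 CPM it is 72.4% of the members and 59.1% of all tested genes, and at 20 to 50 CPM 63.9% and 41.6%.

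OE replicate 1 exceeded OE replicate 2 more than 4-fold for 4 ZNF genes, and more than 2-fold for 19. The share of all tested genes with such gaps is not given here. The SD of the log2 difference between the OE libraries was 0.81 over the members and 1.17 over all tested genes. The spread between the OE libraries was thus not wider over the ZNF genes, but its direction differed. OE replicate 1 was the higher for 66 of 100 members and for 6460 of 12560 tested genes. At an NC mean of 10 to 20 CPM on file totals it was so for 42 of 58 members and 1266 of 2104 tested genes. At 20 to 50 CPM it was so for 22 of 36 members and 1279 of 2824 tested genes. ZNF91 had 20.4 and 19.0 CPM in NC against 75.3 and 10.8 CPM in OE, a 6.97-fold gap between the OE libraries (log2 fold change 1.12, SE 0.88). ZNF276 had 9.01 and 13.3 CPM in NC against 64.8 and 11.9 CPM in OE (1.78, SE 0.82). ZNF276 overlaps FANCA and VPS9D1, so its reads may not be its own. ZNF816 had 12.6 and 14.01 CPM in NC against 56.8 and 10.8 CPM in OE, and its symbol has 2 rows in the files. ZNF292 had 14.6 and 21.6 CPM in NC against 42.4 and 10.5 CPM in OE. The opposite split, over 2-fold, occurred for ZNF574 alone, a gene that overlaps GRIK5, with 20.5 and 20.4 CPM in NC against 11.04 and 37.7 CPM in OE. Without OE replicate 1 the log2 fold changes of ZNF91, ZNF816 and ZNF292 turned negative (-0.86, -0.30 and -0.77), and that of ZNF276 was 0.097.

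Nearly equal OE values were seen for ZNF3 (23.4 and 21.3 CPM in NC, 21.8 and 22.02 in OE), ZNF426 (10.9 and 11.96, 11.8 and 11.03) and ZNF57 (21.0 and 25.7, 23.8 and 25.5), all within the span of the controls. ZNF217, given above, had the smallest gap between the OE libraries. ZNF511, of the 8 members with the highest NC mean, had 55.6 and 46.1 CPM in NC against 57.1 and 62.3 CPM in OE (0.23).

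Fractions were common in the counts of this family. RSEM-type estimates can hold a fraction where a read fits more than 1 gene. Of the ZNF genes, 55 of 100 had a fraction in all 4 libraries, against 12.2% of the 8329 genes with an NC mean of at least 10 CPM on file totals. Whole counts in all 4 libraries were found for 30, against 73.3%. ZNF91, ZNF160, ZNF165 and ZNF232 were of the first kind, and ZNF207, ZNF281, ZNF598 and ZNF703 of the second. The median difference of OE replicate 1 was 0.32 in the 55 genes and 0.43 in the 30, and that of OE replicate 2 was 0.03 and 0.02. The levels given for genes of the first kind are therefore uncertain, since near-identical copies may share their reads. Among the highest and lowest fold changes without overlap described above, these genes were ZNF165, ZNF251, ZNF627, ZNF525, ZNF440 and ZNF160.

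In the order of genes of GRCh38.p14, 52 of the 100 members lay next to another ZNF gene, as did 66.6% of the 509 ZNF genes in the table. The 52 had median differences of 0.35 and 0.02 in OE replicates 1 and 2, and the other 48 had 0.49 and 0.03. Of the neighbours, 11 (21.2%) lay above and 4 (7.69%) below NC in both OE libraries, and of the others 16 (33.3%) and 6 (12.5%), against 19.9% and 20.4% of all tested genes. The difference between these groups of members was not tested. There were 12 pairs of adjacent members. In OE replicate 1 some pairs had like differences, such as ZNF12 (1.21) and ZNF316 (1.05), and others did not, such as ZNF320 (0.96) and ZNF468 (-0.17). In all, 20 members overlapped another protein-coding gene, for which reads can be shared where strand is not used. Besides those pointed out above, they included ZNF106 (with SNAP23), ZNF146 (ZNF565), ZNF232 (USP6) and ZNF410 (FAM161B). ZNF511 (TUBGCP2), ZNF687 (PI4KB), ZNF3 (ZSCAN21) and ZNF816 (ZNF816-ZNF321P) were others, so the values given for these genes carry the same limit.

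The genes through which KRAB proteins act were measured as a list of 27, and 0 passed edgeR's test (0 at an unadjusted p below 0.05; DESeq2 also called 0). Without OE replicate 1 it called 12, where 34.1% of all genes were called, and without OE replicate 2 it called 17, where 60.9% were. Their median log2 fold change was 0.02, with 3 genes above and 3 below NC in both OE libraries (11.1% each, against 19.9% and 20.4% of all tested genes). TRIM28, the KRAB corepressor, had 651 and 612 CPM in NC against 183 and 914 CPM in OE, on either side of the controls. SETDB1, the histone H3 lysine methyltransferase it recruits, had 42.2 and 42.4 CPM in NC against 44.2 and 26.5 CPM in OE. TASOR, a HUSH subunit, had 43.7 and 53.1 CPM in NC against 131 and 45.5 CPM in OE (0.86). The 3 other genes of smallest p were DNMT3B, a DNA methyltransferase (0.80), CBX5, or HP1 alpha (-0.49), and EHMT1, or GLP (0.52). Only DNMT3B and CBX5 of these 4 had groups that did not overlap.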

How the data were processed

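Ribosome footprints of 4 libraries (2 NC, 2 OE) were used, grouped by their titles. The authors deposited estimated counts per gene (expected counts, some with fractions), per the file headers. Per the submitters' processing notes, RSEM, StringTie, HISAT2, Bowtie2 and fastp were used, with the build hg18; the sources used here do not give their settings, strand use or annotation. Counts were rounded to whole numbers. In R 4.3.3, edgeR 4.0.16 (built on limma 3.58.1) was the main tool and DESeq2 1.42.0 an alternative. After filterByExpr (a minimum count of 10 in a library, a minimum total of 15 and a proportion of 0.7), 12560 genes were tested, all 100 ZNF genes among them. TMM was used for scaling. OE was compared with NC by the quasi-likelihood test over all genes, with an adjusted p below 0.05 as the threshold. P-values rest on the spread of 2 libraries a group; the common biological coefficient of variation was 0.423.

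Counts of replicates were compared by chi-square, which per degree of freedom was 13.4 for the NC pair and 344.8 for the OE pair, so neither pair was 1 library deposited again. On simulated data of 12441 genes, 33.3% of 4-fold and 99% of 16-fold changes were called. The simulation gave every gene in both groups the common biological coefficient of variation. It held neither the wider spread of the OE pair nor the shift with level of OE replicate 1, so these rates may not hold here. RefSeq tables of GRCh38.p14 gave promoters and gene order. Of several rows of 1 symbol (6 members) the one with the largest summed count was used.

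The members and the lists were chosen with earlier results of these data known. Genes were named by rule: the 8 highest NC means, the 8 highest and 8 lowest fold changes without overlap, the 4 smallest p, the 3 on each side of the limit, role lists, the 4 largest and 4 smallest gaps between OE libraries, and 4 genes of the KRAB machinery by smallest p. Neighbour pairs, ZNF574, TRIM28 and SETDB1 were added after their values were seen. Levels per length and a split by KRAB domain were not computed, as no coding lengths or proteins were used here. Alternatives were DESeq2, RLE and total-count scaling, no filter, the replicate number as a block, limits of 5 and 20 CPM, summed rows of a symbol, and leaving out each library.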

Additional observations from a re-analysis of the deposited data

How the results depend on the processing

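The count of ZNF genes past the threshold stayed at 0 with DESeq2, RLE scaling, library totals, no filter and the replicate block, and ranged from 0 to 63 when 1 library was left out. Over all genes the count was 0, with 25 by DESeq2, 24 with the replicate number as a block and 7 to 7969 with 1 library left out; for the KRAB machinery it ranged from 0 to 17. Fits without an OE library assume that the lone one varies like the NC pair. With library totals as the only scaling the median log2 fold change of the members was 0.68 and the median difference of OE replicate 1 was 1.02; 2 members lay below NC. That median fold change ranged from 0.016 to 0.41 with 1 library left out, the lowest without OE replicate 1. A limit of 5 CPM (216 ZNF genes) gave 64 above and 21 below NC, where 17.9% and 23.0% of all tested genes past that limit were. A limit of 20 CPM (42 genes) gave 9 and 6, where 10.4% and 29.1% were. These shares of all tested genes are not matched to the members' levels within each limit. METTL14's log2 fold change was 2.54 by DESeq2 (past the threshold) and 0.99 to 3.24 with 1 library left out. Whether equal replicate numbers share an experiment is not stated, and deviations of same-numbered libraries correlated at -0.0974, so the numbers were not treated as pairs; with the block 0 members passed, their median was 0.27 and METTL14's value 2.13.

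Of 45 named members, 27 kept their direction in every alternative run and 18 did not. Directions turned with library totals for ZNF106 (0.40), ZNF217 (0.047), ZNF3 (0.30) and ZNF426 (0.33), with DESeq2 (0.00070) and RLE scaling (0.00074) for ZNF426, and for ZNF830 without a filter (-0.018) and with the block (-0.080). Leaving out 1 library gave ranges across 0 of -0.90 to 0.10 for ZNF24, -0.65 to 0.38 for ZNF106, -0.76 to 0.90 for ZNF638, -0.045 to 0.67 for ZNF805, -0.030 to 0.26 for ZNF268, -0.20 to 0.72 for ZNF598, -0.74 to 0.019 for ZNF622, -0.66 to 0.46 for ZNF830, -0.053 to 0.72 for ZNF148, -0.94 to 0.069 for ZNF687, -0.21 to 0.72 for ZNF644, -0.86 to 1.89 for ZNF91, -0.30 to 2.06 for ZNF816, -0.77 to 1.19 for ZNF292, -0.13 to 0.022 for ZNF3, -0.084 to 0.028 for ZNF426 and -0.075 to 0.20 for ZNF57. TASOR ranged from -0.084 to 1.39 and EHMT1 from -0.042 to 0.88. The cause was not tested. The split by KRAB domain was not run, since no protein table was used. OE replicate 1 was the shallowest library, and the part of its depth in the spread between the OE libraries was not tested. Intervals for counting error do not cover that spread.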
